A study of Mus musculus with 6 samples.

Results

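The 46 genes described here encode the proteins that mark DNA replication origins, open them and copy DNA at the fork. They were chosen by function, with no measured value in the rule: the origin recognition complex, the licensing factors CDC6, CDT1 and geminin, the MCM helicase and its partners CDC45 and GINS, polymerases alpha, delta and epsilon, the clamp and its loader, the enzymes that mature Okazaki fragments, and the single-strand binding protein RPA. All 46 were found among the 54532 genes of the deposited table, and all 46 passed the filter on low counts that left 12873 genes to test. RNA was sequenced after poly-A selection from 3 GOT1-/- and 3 WT libraries of Th17 cells, the IL-17-producing helper T cells. GOT1-/- mice lacked GOT1, the cytosolic aspartate transaminase, in T cells only, WT mice carried the intact gene, and both were C57BL/6 mice of 6 to 10 weeks, male or female. The driver of the deletion and the part of Got1 removed were not stated in the labels. From both genotypes, naive CD4+ T cells (CD25-, CD62L+, CD44-) were sorted, the same number of cells was stimulated on plate-bound anti-CD3 (5 µg/ml) with anti-CD28 (2 µg/ml), and RNA was taken on day 4, after a change of medium on day 2. Both also received the same Th17 cytokines: TGFβ at 2.5 ng/ml, with 10 ng/ml of each of IL-1β, IL-6 and IL-23, while 2 µg/ml each of anti-IFNγ and anti-IL-4 blocked the other helper fates. Nothing in the labels ties the libraries to separate animals, and the p-values therefore measure the spread between 6 samples, which may be only technical.

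Origins are licensed in G1, when the origin recognition complex, CDC6 and CDT1 load the MCM helicase onto origins in an inactive form. In S phase CDC45 and GINS join MCM to form the active helicase, polymerase alpha with primase lays the primers, polymerase epsilon extends the leading strand, and polymerase delta with the PCNA clamp extends the lagging strand. Many of these genes are targets of E2F transcription factors in cycling cells, and activated T cells divide rapidly in the days after stimulation.

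Got1 itself had 16.0, 15.04 and 17.5 CPM (counts per 1000000, on library sizes scaled by edgeR's TMM method) in GOT1-/- libraries, against 166.0, 165.4 and 173.6 CPM in WT libraries. Its log2 fold change was -3.38. Total counts ran between 17557436 and 22541410 in GOT1-/- libraries and between 16463752 and 21239075 in WT libraries. A count of 3, the limit that a count of 0 allows, came to 0.133 to 0.181 CPM, which covers counting error only. The summed level of 8 CD4 T cell markers was 3330 to 3530 CPM in GOT1-/- libraries and 3990 to 4120 CPM in WT libraries. The sum of 5 Th17 markers was 1190 to 1300 CPM in GOT1-/- libraries and 1270 to 1380 CPM in WT libraries. Markers of mast cells or basophils summed to 12.0 to 12.9 CPM in GOT1-/- libraries and 3.03 to 3.85 CPM in WT libraries, and 4 of the 4 tested (of 6 listed) were called higher. B cell markers summed to 3.42 to 3.45 CPM in GOT1-/- libraries and 2.36 to 3.24 CPM in WT libraries, and the 3 tested (of 5 listed) were not called. Markers of macrophages, monocytes and neutrophils summed to 26.5 to 30.5 CPM in GOT1-/- libraries and 24.7 to 26.5 CPM in WT libraries, with 3 of 6 tested (of 8 listed) called higher and 1 lower. CD8 T and NK cell markers summed to 48.9 to 52.6 CPM in GOT1-/- libraries and 66.1 to 70.2 CPM in WT libraries, with 1 of 3 tested (of 6 listed) called lower. Ncr1, a defining NK cell gene, had 0, 2 and 0 counts in GOT1-/- libraries and no count in any WT library, and was not tested. The part of these other cells in the results on replication genes was not tested.

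Replication genes were mostly higher in GOT1-/- cells. Of the 46, 36 were called higher, 1 (Orc3) was called lower and 9 were not called, at an adjusted p under 0.05 by the quasi-likelihood test of edgeR, adjusted over all 12873 genes by the Benjamini-Hochberg method, which gives every adjusted p below. Among all genes tested, 22.9% were called higher and 21% lower. The 78.3% of replication genes called higher was well above that background, while the share called lower was below it. The 46 genes were chosen by function, but with earlier results of these data known. The median log2 fold change of the 46 was 0.44, or 1.35-fold, with an interquartile range of 0.25 to 0.66. Over all genes tested the median was 0.01, with an interquartile range of -0.26 to 0.28. The largest change was that of Fen1, at 1.5, and the lowest that of Orc3, at -0.26. All 3 GOT1-/- libraries lay above all 3 WT libraries for 37 of the 46 genes, where 27.7% of all genes tested did so, and below them for 2, where 25.8% of all genes did so. In bulk RNA, more cells in S phase and more of these transcripts in each cell cannot be told apart.

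**Figure D1:**
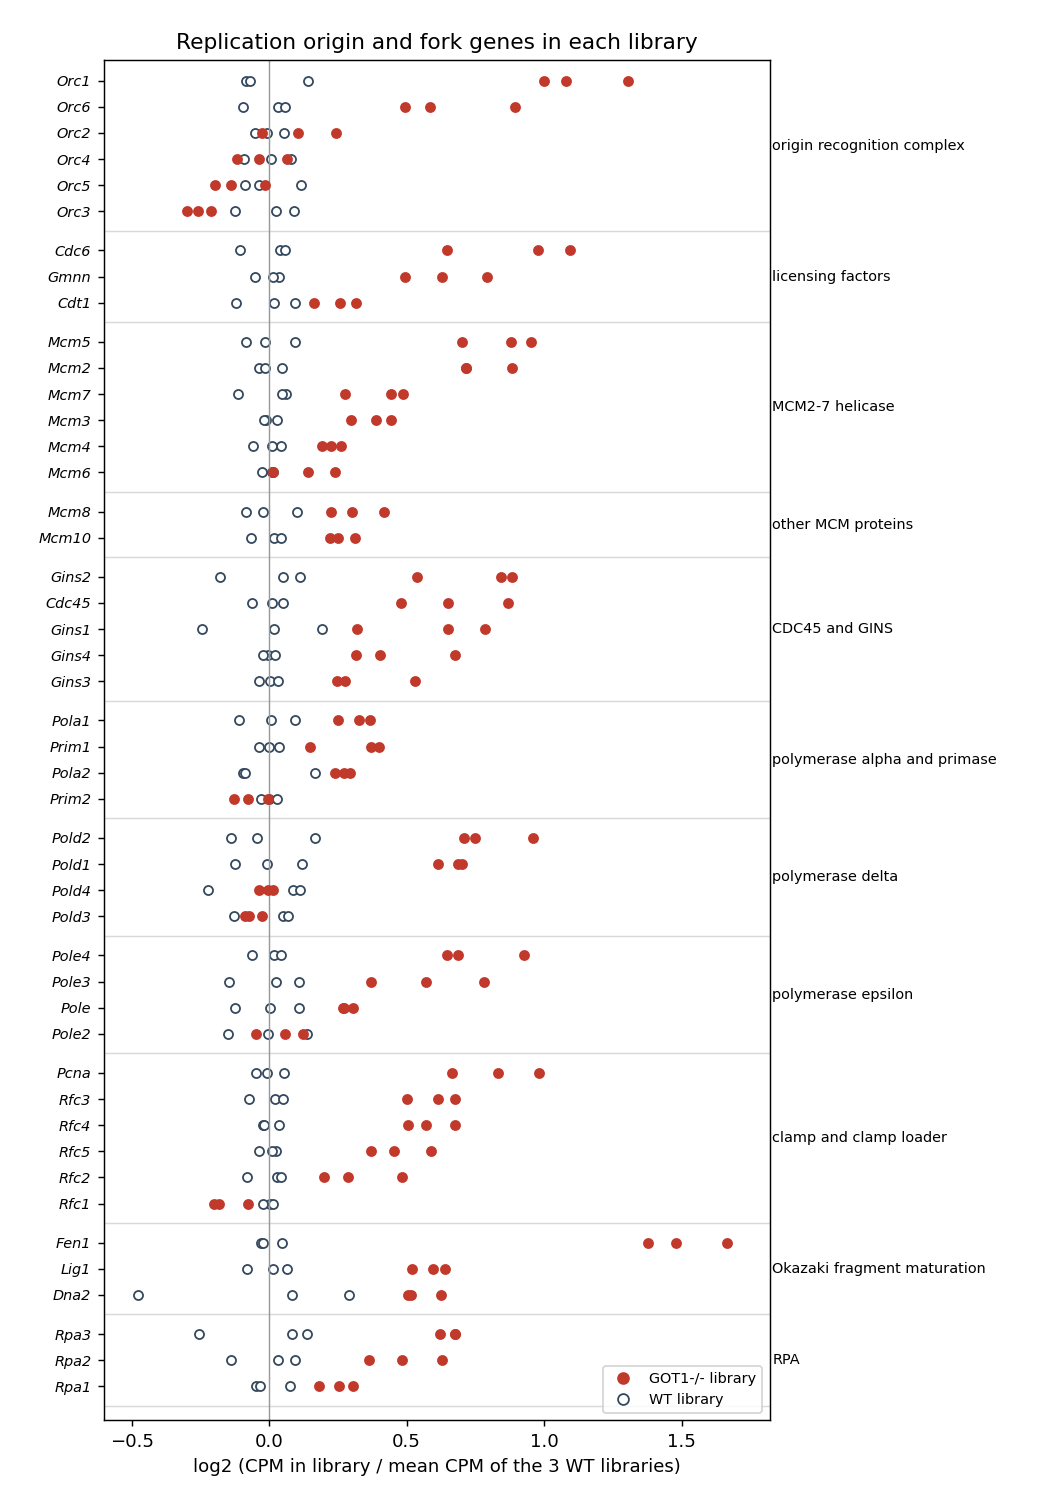
Level of each of the 46 replication genes in each GOT1-/- and WT library, plotted as log2 of the ratio to the WT mean in CPM, with genes grouped by role; points are single libraries. All GOT1-/- points lie to the right of all WT points for 37 genes, with Fen1 and Orc1 farthest, and to the left of them for Orc3 and Rfc1.

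The promoter stretches printed next are shown because E2F factors bind the word they hold. Promoters from RefSeq (GRCm38.p6) were found for 38 of the 46 genes, and Gmnn, Mcm4, Gins1, Gins2, Gins4, Prim2, Pole and Rfc2 had no entry. In the 250 bases before each start, on both strands, 10 of the 38 genes (26.3%) held 1 of the words TTTGGCGC, TTTCCCGC, TTTCGCGC or TTTGCCGC, against 2.16% of the 27025 genes with a promoter in the same table. The genes were Orc1, Orc3, Cdc6, Mcm5, Mcm6, Mcm7, Gins3, Pola1, Pole4 and Rfc3. Each stretch has 30 bases, written 5′ to 3′ on the strand of the gene, with the E2F word in capitals on whichever strand it was read. Starts are those of RefSeq and can differ from the deposited ones. The stretches of Pole4, Cdc6, Mcm7 and Rfc3 lie inside the deposited gene, that of Pole4 far inside, and that of Orc1 partly inside. Another RefSeq start of Mcm7 had no E2F word. Among the 10 genes with an E2F word only, the first 6 are those called higher with the smallest adjusted p. Mcm2 and Pcna, with adjusted p of 4.57e-07 and 5.64e-07, held no E2F word and are not printed. Orc3 and Mcm6 were added after their values were seen, as the gene called lower and a gene not called.
Mcm5, chr8:75109347-75109376, plus strand, with 2 overlapping words: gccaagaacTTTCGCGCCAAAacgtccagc
Orc1, chr4:108579416-108579445, plus strand: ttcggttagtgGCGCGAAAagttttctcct
Pole4, chr6:82652890-82652919, minus strand: ctctacccggcGCGGGAAAggggccgaaat
Cdc6, chr11:98908002-98908031, plus strand: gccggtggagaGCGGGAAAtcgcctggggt
Rfc3, chr5:151651209-151651238, minus strand: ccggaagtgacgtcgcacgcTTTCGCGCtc
Mcm7, chr5:138172030-138172059, minus strand: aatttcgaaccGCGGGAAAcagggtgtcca
Orc3, chr4:34614965-34614994, minus strand: ccatgcctcccTTTCCCGCacgccccgcct
Mcm6, chr1:128359734-128359763, minus strand: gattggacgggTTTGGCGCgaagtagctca

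Among the 10 genes that held one, 8 were called higher and 1 lower, with a median log2 fold change of 0.50, and among the 28 matched genes without one, 21 were called higher and 7 were not called, with a median of 0.42. The word CCAAT, which NF-Y binds, stood in 23 of the 38 genes (60.5%), against 37.5% of all genes with a promoter. The E-box CACGTG, bound by MYC and related factors, stood in 6 (15.8%, against 6.86% of all), and TTTGAA, the CHR word of many mitotic genes, in 5 (13.2%, against 18.3%). These are matches of letters, not binding sites, and the E2F, CCAAT, E-box and CHR words were counted separately, whether or not they overlapped.

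The 6 subunits of the origin recognition complex, which sits on origin DNA, went different ways. Orc1 and Orc6 were called higher, Orc3 lower, and Orc2, Orc4 and Orc5 were not called, with a median log2 fold change of 0.04. Orc1, an ATP-binding subunit that helps to recruit CDC6 (chr4:108579423-108614833, plus strand), had 14.8, 18.3 and 15.7 CPM in GOT1-/- libraries, against 8.19, 6.99 and 7.07 CPM in WT libraries. The gap between the groups was wide, at 2.19-fold (log2 fold change 1.13, SE 0.12, adjusted p = 2.26e-06). Orc6 (chr8:85299632-85308278, plus strand), the small subunit that also helps to load MCM, had 32.9, 35.1 and 43.5 CPM in GOT1-/- libraries, against 23.9, 21.9 and 24.4 CPM in WT libraries, a log2 fold change of 0.67 (SE 0.10, adjusted p = 7.29e-05). Its lowest GOT1-/- library was above its highest WT library. Vps35, a neighbour on the other strand with a mean of 3469.3 counts, shares 6.9% of the exon bases of Orc6, and without a stated strand setting their reads there cannot be told apart.

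Orc3, a core subunit, (chr4:34570796-34614944, minus strand) had 64.2, 65.9 and 68.2 CPM in GOT1-/- libraries, against 72.4, 80.3 and 83.9 CPM in WT libraries, a log2 fold change of -0.26 (SE 0.08, adjusted p = 0.0124). The groups did not overlap, but the call ended after correction for gene length (adjusted p = 0.106), after correction for length and GC content (adjusted p = 0.8) and without WT replicate 2 (adjusted p = 0.0534). Orc2 had 34.6, 37.8 and 41.7 CPM in GOT1-/- libraries, against 34.98, 34.0 and 36.5 CPM in WT libraries, with overlapping groups (log2 fold change 0.11, adjusted p = 0.319), and Nif3l1 on the other strand shares 29.8% of its exon bases. Orc4 and Orc5 had mean log2 fold changes of -0.03 and -0.12 (adjusted p = 0.818 and 0.317), and the GOT1-/- and WT ranges of both overlapped. With the correction for length and GC content Orc4 was instead called higher, at 0.38 (adjusted p = 0.000859). Per kb of the deposited gene length, Orc1 stood at 4.68 ± 0.53 CPM per kb in GOT1-/- cells and 2.13 ± 0.19 CPM per kb in WT cells (SD, n = 3 each), rank 39 of the 46 genes in GOT1-/- cells and 44 in WT cells. The level of Orc1 relative to Orc4, both per kb, was 0.969 ± 0.162 in GOT1-/- cells and 0.432 ± 0.0425 in WT cells. This ratio is 1 of 7 ratios between members that were chosen after their values were seen and are given without a test. Dividing by gene length does not remove a library's trend over length, so these ratios still carry that trend.

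All 3 licensing genes were called higher, by unequal amounts. Cdc6 (chr11:98907801-98923940, plus strand), the ATPase that with the origin recognition complex loads MCM, had 32.1, 43.8 and 40.3 CPM in GOT1-/- libraries, against 21.1, 19.1 and 21.3 CPM in WT libraries. This was 1.89-fold (log2 fold change 0.92, SE 0.11, adjusted p = 5.02e-06). Gmnn (chr13:24751845-24761923, minus strand) encodes geminin, the inhibitor that binds CDT1 in S and G2 phase, and had 37.8, 41.5 and 46.5 CPM in GOT1-/- libraries, against 27.5, 25.9 and 27.1 CPM in WT libraries. The groups were separate, with a log2 fold change of 0.64 (SE 0.09, adjusted p = 2.86e-05). Cdt1 (chr8:122568015-122573554, plus strand), the factor that brings MCM to origins, had 69.8, 74.5 and 77.6 CPM in GOT1-/- libraries, against 66.6, 63.1 and 57.3 CPM in WT libraries. It was the weakest of the 3, at a log2 fold change of 0.24 (SE 0.08, adjusted p = 0.0187), and the call ended without GOT1-/- replicate 2, WT replicate 2 or WT replicate 3 (adjusted p = 0.0816, 0.053 and 0.0964) and after correction for length (0.0514) or length and GC content (0.327). Per kb, the ratio of Cdt1 to Gmnn was 0.861, 0.838 and 0.779 in GOT1-/- libraries and 1.13, 1.14 and 0.987 in WT libraries. By this measure Cdt1 was below Gmnn in all 3 GOT1-/- libraries and about level with it in WT replicate 3, and the groups did not overlap. The deposited length of Gmnn, 1465 bp, exceeds its longest transcript, at 1127 bases. Which of these genes stood above the other therefore depends on the length used. After correction for length the log2 fold changes of Cdt1 and Gmnn were 0.18 and 0.40. The ratio of Cdc6 to Cdt1 was 0.314 ± 0.0384 in GOT1-/- cells and 0.198 ± 0.0223 in WT cells (SD, n = 3 each).

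The MCM helicase is a ring of 6 different subunits, and 5 of their genes were called higher, with a median log2 fold change of 0.39. The ring's genes did not move by the same amount, and the least abundant per kb, Mcm2 and Mcm5, had the largest fold changes. Mcm5 (chr8:75109569-75128439, plus strand), whose E2F stretch is printed above, had 162.1, 192.9 and 183.2 CPM in GOT1-/- libraries, against 106.4, 98.6 and 94.0 CPM in WT libraries, or 1.80-fold (log2 fold change 0.85, SE 0.08, adjusted p = 4.57e-07). Mcm2 (chr6:88883474-88898780, minus strand), which with Mcm5 forms the gate of the ring, had 157.4, 176.4 and 157.2 CPM in GOT1-/- libraries, against 99.0, 93.3 and 94.8 CPM in WT libraries, or 1.71-fold (log2 fold change 0.77, SE 0.07, adjusted p = 4.57e-07). In both, the gap between the groups was wider than the range of either group. Mcm3 (chr1:20802968-20820312, minus strand) had 283.5, 302.0 and 313.7 CPM in GOT1-/- libraries, against 235.6, 228.9 and 227.5 CPM in WT libraries, a log2 fold change of 0.38 (SE 0.07, adjusted p = 0.000217).

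Mcm6 (chr1:128331590-128359664, minus strand) was the subunit not called, and 3 E2F words stand in its promoter window. It had 288.8, 315.3 and 336.9 CPM in GOT1-/- libraries, against 287.7, 280.8 and 288.3 CPM in WT libraries (log2 fold change 0.14, SE 0.07, adjusted p = 0.129). Its lowest GOT1-/- library was barely above its highest WT library, and it was called higher after correction for length and GC content (adjusted p = 0.0102) and without GOT1-/- replicate 1 (adjusted p = 0.0338). Mcm7 and Mcm4 had log2 fold changes of 0.40 and 0.23 (adjusted p = 0.000363 and 0.00919), and the Mcm4 call ended without GOT1-/- replicate 2 or WT replicate 2 (adjusted p = 0.0725 and 0.0642). Mcm7 shares 7.3% of its exon bases with Ap4m1 on the other strand, and a near-identical copy, AC125028.1, had a mean of 4.3 counts where Mcm7 had 3616.3. Mcm4 also has a near-identical copy, Gm9577, with no counts.

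Per kb, the 6 ring genes stood in different proportions in both genotypes. Mcm3 was at 79.9 ± 4.06 CPM per kb in GOT1-/- cells and 61.5 ± 1.16 CPM per kb in WT cells, and Mcm2, the lowest of the 6, at 23.5 and 13.8 CPM per kb. The ratio of Mcm5 to Mcm6 was 0.669 ± 0.0412 in GOT1-/- cells and 0.408 ± 0.0257 in WT cells. Summed over the 6 genes, the level was 303.4, 332.6 and 335.0 CPM per kb in GOT1-/- libraries and 256.2, 246.1 and 245.0 CPM per kb in WT libraries. The lowest GOT1-/- sum was above the highest WT sum.

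**Figure D2:**
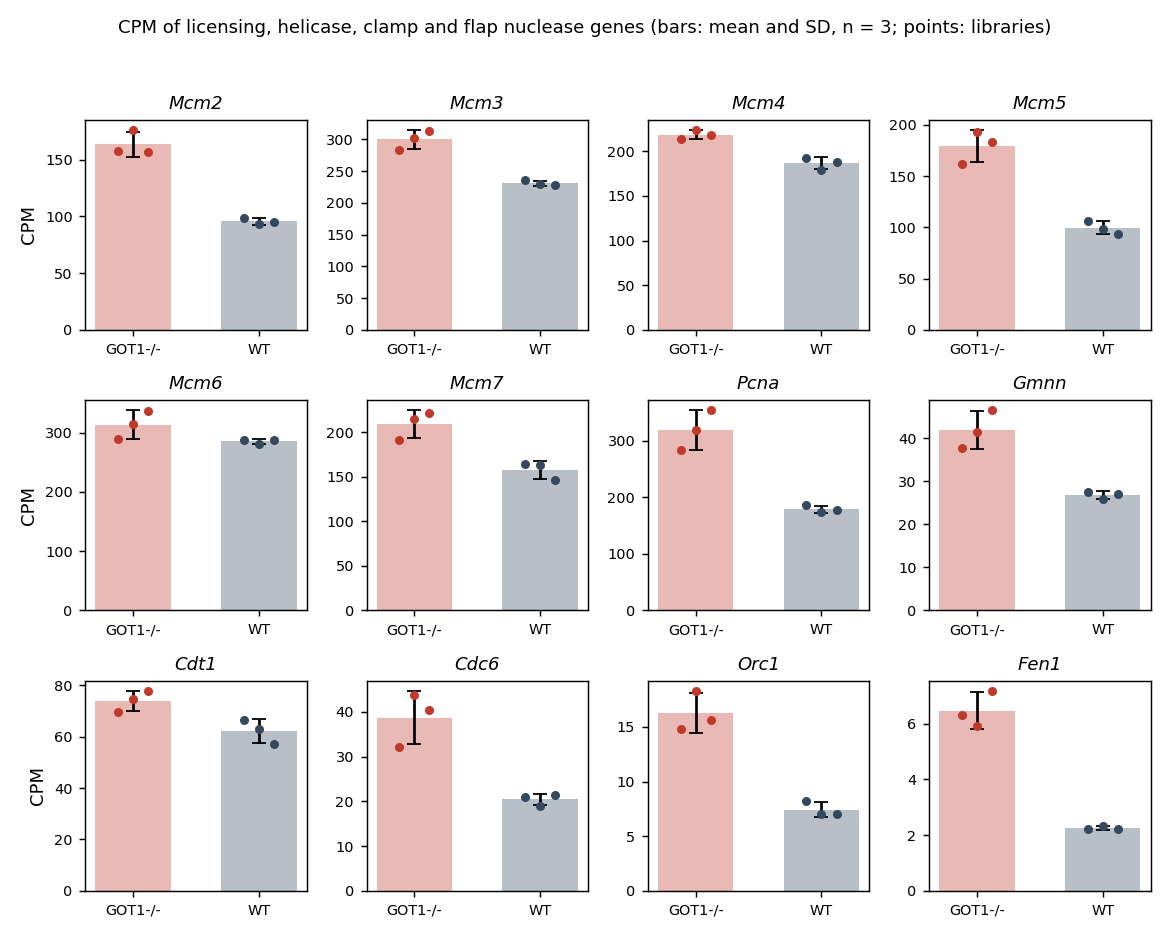
Level in CPM of 12 genes of licensing, the MCM ring, the clamp and the flap nuclease in GOT1-/- cells (left bar) and WT cells (right bar); bars are means with SD (n = 3 each), points are libraries and each panel has its own axis. The libraries of Mcm2, Mcm5, Pcna and Fen1 are widely separated between genotypes, whereas those of Mcm6 touch.

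Mcm8 and Mcm10, which carry the MCM name but are not part of the ring, were both called higher by small amounts. Mcm10, which activates the assembled helicase, had 32.0, 32.6 and 34.1 CPM in GOT1-/- libraries, against 26.2, 27.8 and 28.3 CPM in WT libraries (log2 fold change 0.26, SE 0.08, adjusted p = 0.0168). Mcm8, a helicase of recombination repair, had 10.47, 12.0 and 11.04 CPM in GOT1-/- libraries, against 8.44, 8.82 and 9.61 CPM in WT libraries (log2 fold change 0.32, SE 0.12, adjusted p = 0.0362). The groups of both genes were separate but near each other. Without GOT1-/- replicate 2 or WT replicate 1 neither call held (adjusted p = 0.0602 and 0.0883 for Mcm10, 0.172 and 0.13 for Mcm8), and that of Mcm8 also ended without GOT1-/- replicate 3 or WT replicate 2 (0.0544 and 0.0907), with DESeq2 (0.111) and with no filter on low counts (0.0549).

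CDC45 and the 4 GINS subunits convert loaded MCM to the active helicase, and all 5 genes were called higher, with a median log2 fold change of 0.61. Cdc45 (chr16:18780447-18811987, minus strand) had 39.1, 44.1 and 51.3 CPM in GOT1-/- libraries, against 28.3, 29.1 and 26.9 CPM in WT libraries, and the log2 fold change was 0.67 (SE 0.10, adjusted p = 3.79e-05). Gins2 (chr8:120578633-120589304, minus strand) had 23.6, 29.9 and 29.1 CPM in GOT1-/- libraries, against 17.5, 14.4 and 16.8 CPM in WT libraries, and the log2 fold change was 0.76 (SE 0.11, adjusted p = 3.91e-05). Gins4 had 33.1, 35.2 and 42.5 CPM in GOT1-/- libraries, against 26.5, 26.2 and 27.0 CPM in WT libraries, at a log2 fold change of 0.47 (SE 0.10, adjusted p = 0.000833). In all 3 genes the groups were separate, and GOT1-/- replicate 1 was the lowest of its group. Gse1, on the other strand, shares 67.3% of the exon bases of Gins2 and had a mean of 778 counts against 432.2 for Gins2, so the Gins2 value is uncertain. Ufd1, also on the other strand, shares 6.0% of the exon bases of Cdc45, with a mean of 786.2 counts against 717.5 for Cdc45. Gins1 and Gins3, at 9.89 to 15.3 CPM in GOT1-/- libraries and 7.51 to 10.2 CPM in WT libraries, had log2 fold changes of 0.61 and 0.35 (adjusted p = 0.00223 and 0.0285). After correction for length, Gins4 and Gins3 were no longer called (adjusted p = 0.062 and 0.0993). The Gins3 call also ended with the correction for length and GC content (0.0528), with DESeq2 (0.084), and without GOT1-/- replicate 3 or any 1 WT library (0.0535 to 0.134).

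Polymerase alpha and primase, which start each new strand, had 3 of 4 genes called higher and a median log2 fold change of 0.29. Pola1 (chrX:93304767-93632155, minus strand), the catalytic subunit, had 35.3, 37.2 and 38.3 CPM in GOT1-/- libraries, against 31.6, 27.5 and 29.9 CPM in WT libraries (log2 fold change 0.32, SE 0.09, adjusted p = 0.00631). Prim1, the catalytic primase subunit, had 28.2, 32.9 and 33.6 CPM in GOT1-/- libraries, against 26.1, 25.5 and 24.8 CPM in WT libraries (log2 fold change 0.31, SE 0.09, adjusted p = 0.0107). Leaving out GOT1-/- replicate 2 ended that call (adjusted p = 0.0674). The accessory subunit gene Pola2 had 46.2, 47.3 and 48.0 CPM in GOT1-/- libraries, against 43.9, 36.6 and 36.8 CPM in WT libraries (log2 fold change 0.27, adjusted p = 0.0178). The groups of these 3 were separate. The Pola2 call ended without GOT1-/- replicate 2 (0.0692), WT replicate 2 (0.0988) or WT replicate 3 (0.08) and after both corrections (0.0791 for length, 0.152 for length and GC content). Prim2, the large primase subunit, had 42.4, 41.0 and 44.6 CPM in GOT1-/- libraries, against 44.8, 45.7 and 43.9 CPM in WT libraries, with overlapping groups (log2 fold change -0.07, adjusted p = 0.482).

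In polymerase delta, the catalytic and second subunits were called higher and the other 2 were not called. Pold1 (chr7:44532746-44548849, minus strand), the catalytic subunit with the proofreading exonuclease, had 119.1, 120.2 and 113.2 CPM in GOT1-/- libraries, against 80.4, 73.6 and 67.9 CPM in WT libraries. The separation was wide, at a log2 fold change of 0.67 (SE 0.08, adjusted p = 3.72e-06). Pold2 (chr11:5872180-5878292, minus strand) had 56.3, 66.9 and 57.9 CPM in GOT1-/- libraries, against 38.6, 33.4 and 31.2 CPM in WT libraries, or 1.75-fold (log2 fold change 0.81, SE 0.09, adjusted p = 4.48e-06). Pold3 had 45.3, 43.4 and 43.9 CPM in GOT1-/- libraries, against 47.8, 48.4 and 42.3 CPM in WT libraries, with overlapping groups (log2 fold change -0.06, adjusted p = 0.55). Pold4 (chr19:4231899-4233631, plus strand), the small subunit and at 910 bp the shortest of the 46 genes, had 149.7, 147.9 and 144.7 CPM in GOT1-/- libraries, against 157.3, 160.2 and 127.2 CPM in WT libraries. Its WT libraries spread over more than its GOT1-/- libraries and enclosed them (log2 fold change -0.01, adjusted p = 0.944). After correction for length its log2 fold change was -0.32 and it was called lower (adjusted p = 0.00192), as it was with length and GC content (-0.40, adjusted p = 7.19e-05). Pold4 was the most abundant of the 46 per kb, at 162.0 ± 2.83 CPM per kb in GOT1-/- cells and 162.9 ± 20.1 CPM per kb in WT cells, and the ratio of Pold1 to Pold4 was 0.149 ± 0.00284 in GOT1-/- cells and 0.0939 ± 0.00713 in WT cells.

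Of the polymerase epsilon genes, 3 of 4 were called higher, and as fitted the small histone-fold subunits had larger fold changes than the catalytic one. Pole4 (chr6:82618992-82705365, minus strand) had 56.3, 54.8 and 66.6 CPM in GOT1-/- libraries, against 35.4, 36.0 and 33.5 CPM in WT libraries, or 1.69-fold (log2 fold change 0.76, SE 0.09, adjusted p = 4.38e-06). Its partner Pole3 had 31.8, 36.5 and 42.2 CPM in GOT1-/- libraries, against 22.2, 25.01 and 26.5 CPM in WT libraries (log2 fold change 0.58, SE 0.11, adjusted p = 0.000286). The catalytic subunit gene Pole had 51.6, 53.1 and 51.9 CPM in GOT1-/- libraries, against 46.3, 39.4 and 43.0 CPM in WT libraries (log2 fold change 0.28, adjusted p = 0.00892), and the call ended without GOT1-/- replicate 2 (0.0516) or WT replicate 2 (0.0701). All 3 had separate groups. After correction for length the order was another, with log2 fold changes of 0.64 for Pole4, 0.41 for Pole3 and 0.57 for Pole, the longest of the 46 genes. Pole2, the second subunit, had 10.8, 11.3 and 10.1 CPM in GOT1-/- libraries, against 11.4, 10.4 and 9.37 CPM in WT libraries, with overlapping groups (log2 fold change 0.05, adjusted p = 0.78). The ratio of Pole to Pole4, per kb, was 0.2 ± 0.022 in GOT1-/- cells and 0.276 ± 0.0264 in WT cells. Dividing by length does not remove a library's trend over length, and the corrected log2 fold changes of Pole and Pole4 were close, at 0.57 and 0.64.

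Pcna (chr2:132249162-132253314, minus strand), the sliding clamp that holds polymerases on DNA, had 284.2, 318.8 and 353.9 CPM in GOT1-/- libraries, against 185.9, 173.1 and 178.1 CPM in WT libraries. This was 1.78-fold (log2 fold change 0.83, SE 0.08, adjusted p = 5.64e-07), and the gap between the groups was wider than the range of either group. At 132.9 ± 14.5 CPM per kb in GOT1-/- cells and 74.6 ± 2.68 CPM per kb in WT cells, it was the second most abundant of the 46 genes per kb. Its near-identical copy Pcna-ps2 (99.232% identity over 51.4% of the transcript) had a mean of 22.3 counts where Pcna had 4907.5. Of the 5 subunits of RFC, the loader that opens the clamp, 4 were called higher. Rfc3 (chr5:151642756-151651242, minus strand) had 66.7, 75.2 and 72.0 CPM in GOT1-/- libraries, against 47.8, 44.7 and 48.7 CPM in WT libraries (log2 fold change 0.60, SE 0.08, adjusted p = 1.36e-05). Rfc4 had 22.6, 23.7 and 25.5 CPM in GOT1-/- libraries, against 15.7, 16.4 and 15.8 CPM in WT libraries (log2 fold change 0.58, SE 0.09, adjusted p = 9.54e-05). Rfc5 and Rfc2 had log2 fold changes of 0.47 and 0.33 (adjusted p = 0.000261 and 0.00424).

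Rfc1, the large subunit found only in the replicative loader, had 69.1, 75.2 and 69.8 CPM in GOT1-/- libraries, against 79.6, 78.1 and 80.1 CPM in WT libraries. All GOT1-/- libraries were below all WT libraries, but the difference was not called (log2 fold change -0.15, adjusted p = 0.0982). Rfc4 shares 12.7% of its exon bases with Eif4a2 on the other strand, which had a mean of 6756.3 counts where Rfc4 had 393.3, so its value is uncertain. Rfc2 shares 15.1% with Lat2 and Rfc5 shares 10.7% with Wsb2. Near-identical copies of Rfc5, Rpa3, Cdc6 and Gmnn (Gm12870, Gm6195, Gm9430 and Gm6510) had means of 0.8 counts or fewer.

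All 3 genes of Okazaki fragment maturation were called higher, with a median log2 fold change of 0.59. Fen1 (chr19:10199132-10204169, minus strand), the flap endonuclease that trims the displaced primer, had the largest change of the 46. It had 6.32, 5.90 and 7.19 CPM in GOT1-/- libraries, against 2.22, 2.35 and 2.24 CPM in WT libraries, from 131, 133 and 123 counts in GOT1-/- libraries and 44, 50 and 37 counts in WT libraries. The groups were far apart, at 2.83-fold (log2 fold change 1.5, SE 0.18, adjusted p = 4.4e-06). These are few counts for Fen1, and per kb it was at 2.67 CPM per kb in GOT1-/- cells and 0.937 CPM per kb in WT cells. Gm10143 on the other strand covers 78.8% of its exon bases with a mean of 1.3 counts, and Tmem258 covers 5.4% with a mean of 956 counts, so the value of Fen1 is uncertain.

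Lig1 (chr7:13277283-13311433, plus strand), the ligase that seals the fragments, had 115.2, 121.7 and 125.2 CPM in GOT1-/- libraries, against 84.1, 76.0 and 81.2 CPM in WT libraries (log2 fold change 0.59, SE 0.07, adjusted p = 7.52e-06). Dna2, the nuclease of long flaps, had 8.06, 8.12 and 8.76 CPM in GOT1-/- libraries, against 6.02, 4.08 and 6.95 CPM in WT libraries (log2 fold change 0.56, adjusted p = 0.0124, and 0.0785 without WT replicate 2). Its WT replicate 2 was well below the other two WT libraries. The 3 RPA genes, whose products coat single-stranded DNA, were also all called higher, with a median of 0.49. Rpa3 had 24.9, 24.0 and 24.9 CPM in GOT1-/- libraries, against 16.5, 17.2 and 13.1 CPM in WT libraries (log2 fold change 0.65, SE 0.11, adjusted p = 0.000106). Rpa2 had 44.8, 54.0 and 48.7 CPM in GOT1-/- libraries, against 35.7, 37.2 and 31.7 CPM in WT libraries (log2 fold change 0.49, SE 0.09, adjusted p = 0.000327). Rpa1, the large DNA-binding subunit, had 171.2, 180.0 and 186.7 CPM in GOT1-/- libraries, against 159.3, 146.1 and 147.5 CPM in WT libraries (log2 fold change 0.25, adjusted p = 0.00747). As fitted, the smallest subunit had the largest fold change, but after correction for length the values were 0.37 for Rpa3, 0.42 for Rpa2 and 0.32 for Rpa1. The ratio of Rpa3 to Rpa1 per kb was 0.675 ± 0.0345 in GOT1-/- cells and 0.507 ± 0.0712 in WT cells. That ratio still carries each library's trend over length, and the corrected log2 fold changes of the 2 genes, 0.37 and 0.32, were close.

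The 3 GOT1-/- libraries were not alike across these genes. GOT1-/- replicate 1 had the lowest level of its genotype for 34 of the 46 genes, and replicate 3 the highest for 28. The median log2 ratio to the WT mean was 0.31, 0.43 and 0.51 in GOT1-/- replicates 1, 2 and 3. Together the 46 genes took 0.341, 0.367 and 0.368% of all counts in GOT1-/- libraries and 0.286, 0.274 and 0.272% in WT libraries. Every GOT1-/- library was above every WT library by this measure.

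Shorter genes had larger fold changes than longer ones, here as over all genes. Across the 46 genes, Spearman's rho between deposited gene length and log2 fold change was -0.38, and across 11526 protein-coding genes it was -0.40. Both are correlations across genes, which share the same 6 libraries and are not independent replicates. Of the 23 shorter genes (910 to 3752 bp), 21 were called higher, with a median log2 fold change of 0.58, and of the 23 longer ones (3857 to 11160 bp), 15 were called higher and 1 lower, with a median of 0.31. After each library's trend over length was removed, 17 of the shorter genes were called higher and 1 lower, with a median of 0.37, and 15 of the longer genes were called higher, with a median of 0.44. Over all 46 genes, 32 were then called higher and 1 (Pold4) lower, with a median of 0.40, where 22.8% of all genes were called higher and 18% lower. With GC content added, 35 were called higher and 1 (Pold4) lower, with a median of 0.43, where 23.3% of all genes were called higher and 18.2% lower.

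**Figure D3:**
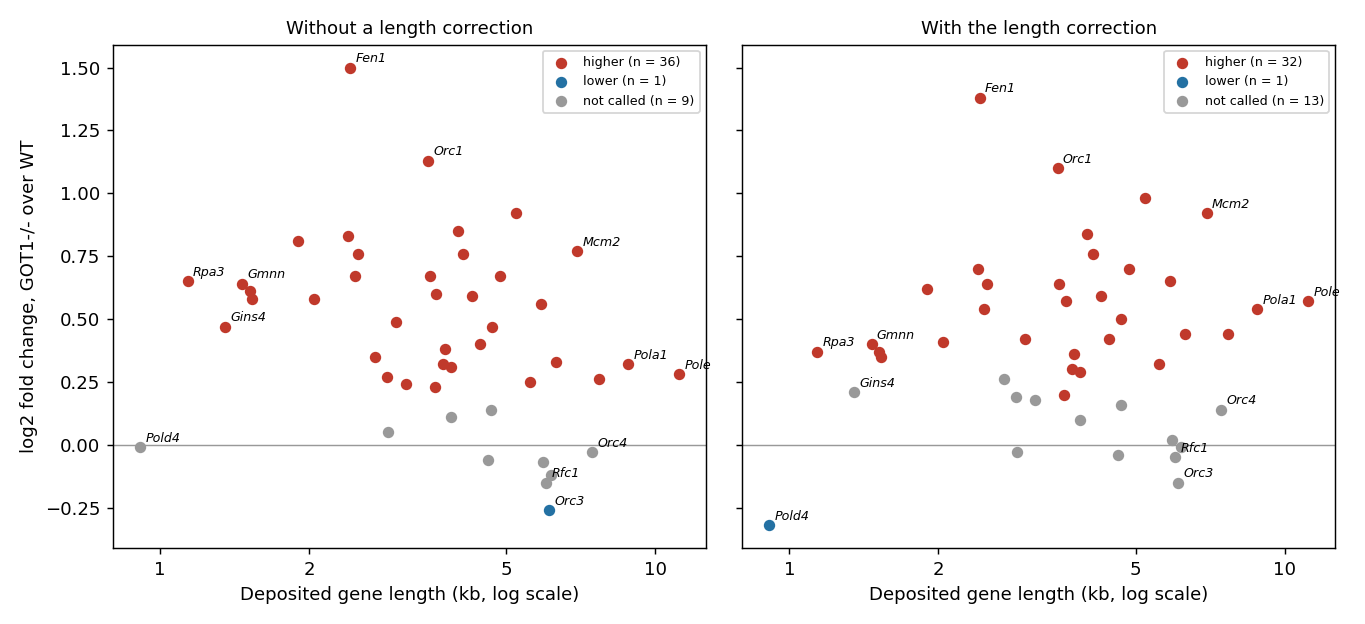
Log2 fold change of GOT1-/- over WT against gene length in kb (log axis) for the 46 replication genes, as fitted on the left and after correction for length on the right. As fitted, the shorter genes tend to lie higher; after correction, the shorter and longer genes have medians of 0.37 and 0.44.

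Genes that act around the fork were read in the same fit, from lists chosen by function. For each list, the share over all genes tested was 22.9% called higher and 21% called lower. Of 13 genes of replication-coupled chromatin assembly, 11 were called higher and 2 were not called, with a median log2 fold change of 0.32. Uhrf1, which brings DNA methyltransferase to new DNA, had 216.0, 241.2 and 244.0 CPM in GOT1-/- libraries, against 158.5, 146.0 and 141.0 CPM in WT libraries (log2 fold change 0.65, adjusted p = 2.87e-06). Chaf1b, a subunit of the histone chaperone CAF-1, had 22.5, 23.5 and 25.5 CPM in GOT1-/- libraries, against 13.3, 12.7 and 13.5 CPM in WT libraries (log2 fold change 0.85, adjusted p = 3.43e-06), and Chaf1a had a log2 fold change of 0.60. The groups of Uhrf1 and Chaf1b did not overlap. Of 19 fork-associated factors, 12 were called higher and 1 lower, with a median of 0.30. Pclaf, a PCNA-binding factor, had 152.3, 158.9 and 186.4 CPM in GOT1-/- libraries, against 110.9, 105.2 and 116.8 CPM in WT libraries (log2 fold change 0.58). Timeless, of the fork protection complex, had a log2 fold change of 0.54, and Rnaseh2c, of the RNase that removes ribonucleotides, one of 0.57. Top1, the topoisomerase that relaxes DNA ahead of the fork, was the 1 called lower, at -0.21, and after correction for length its log2 fold change was 0.07 (adjusted p = 0.5). The Top1 call also ended without GOT1-/- replicate 1, GOT1-/- replicate 2 or WT replicate 3 (adjusted p = 0.0951, 0.0542 and 0.111).

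Of 12 genes of deoxynucleotide supply, 9 were called higher and 1 lower, with a median log2 fold change of 0.50. Rrm2, the S-phase subunit of ribonucleotide reductase, had 146.8, 182.6 and 189.0 CPM in GOT1-/- libraries, against 105.9, 100.7 and 99.2 CPM in WT libraries (log2 fold change 0.76, adjusted p = 3.44e-06). Nme1, a nucleoside diphosphate kinase, had a log2 fold change of 1.05 (adjusted p = 1.38e-06). The gene called lower was Samhd1, which breaks deoxynucleoside triphosphates down, with 627.8, 582.3 and 569.7 CPM in GOT1-/- libraries, against 1023.0, 1069.0 and 1043.0 CPM in WT libraries (log2 fold change -0.82, adjusted p = 1.08e-07). The groups of Rrm2 and of Samhd1 did not overlap.

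Of 15 firing regulators, 4 (26.7%) were called higher and 2 lower, where 22.9% of all genes were called higher and 21% lower. Their median log2 fold change was 0.00, which was 0.23 after correction for length and 0.31 after correction for length and GC content. Ccne1, the cyclin E that drives entry to S phase, had 34.3, 36.6 and 36.7 CPM in GOT1-/- libraries, against 24.1, 26.5 and 24.2 CPM in WT libraries (log2 fold change 0.52, adjusted p = 0.00011), and Recql4, a helicase of initiation, had a log2 fold change of 0.74. Dbf4, the activator of the CDC7 kinase, and Mcm9, the partner of Mcm8, were called lower, at -0.22 and -0.36, and after correction for length neither was called (adjusted p = 0.995 and 0.407). Both calls also ended without GOT1-/- replicate 1 (0.118 and 0.0745) or WT replicate 2 (0.0588 and 0.0996), and that of Dbf4 without GOT1-/- replicate 2 (0.0536) or WT replicate 3 (0.099). Of 10 S-phase checkpoint genes, 3 were called higher and 7 were not called, with a median of 0.12, or 0.19 after correction for length. Those called were Chek1, the checkpoint kinase (log2 fold change 0.67), Cdc25a, the phosphatase it restrains (0.39), and Rad1, of the checkpoint clamp (0.35, adjusted p = 0.088 without GOT1-/- replicate 2). Of 14 translesion and repair polymerase genes, 1 was called higher and 4 lower, with a median of -0.06. Rev3l, the catalytic subunit of polymerase zeta, had 22.6, 20.1 and 17.0 CPM in GOT1-/- libraries, against 33.5, 33.5 and 39.0 CPM in WT libraries (log2 fold change -0.82, adjusted p = 1.19e-05), whereas Mad2l2, its partner subunit, was the 1 called higher, at 0.39. Wdr48, a cofactor of the deubiquitinase that acts on PCNA, was called lower at -0.32, and not after correction for length (adjusted p = 0.272). After that correction 6 of the 15 firing regulators, 5 of the 10 checkpoint genes and 3 of the 14 polymerase genes were called higher. Over all genes tested, 22.8% were then called higher.

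E2F and pocket protein genes had 3 of 13 (23.1%) called higher and 4 lower, with a median log2 fold change of 0.05. Over all genes tested, 22.9% were called higher and 21% lower, so the share called higher was near that of all genes. E2f1, an activator of the family, had 28.8, 34.6 and 33.9 CPM in GOT1-/- libraries, against 19.1, 18.9 and 17.8 CPM in WT libraries (log2 fold change 0.80, adjusted p = 5.59e-06). Its dimer partner Tfdp1 had a log2 fold change of 0.33 and the other partner, Tfdp2, one of -0.59. Rb1, the retinoblastoma protein that holds E2F in check, had 127.8, 119.6 and 122.8 CPM in GOT1-/- libraries, against 180.8, 198.5 and 208.6 CPM in WT libraries (log2 fold change -0.67, adjusted p = 1.98e-06). Its relatives Rbl1 and Rbl2 were also called lower, at -0.25 and -0.50. The Rbl1 call ended after correction for length (adjusted p = 0.102) or length and GC content (0.469) and without GOT1-/- replicate 3, WT replicate 2 or WT replicate 3 (0.0644, 0.0651 and 0.0501). The E2f1 and Rb1 groups were separate, in opposite directions. E2f2 and E2f3, also in the list, were not called. E2f2 had 94.8, 87.1 and 76.4 CPM in GOT1-/- libraries, against 100.9, 96.5 and 97.0 CPM in WT libraries. Its log2 fold change was -0.19 (adjusted p = 0.0679). After correction for length and GC content E2f2 was called lower (-0.26, adjusted p = 0.00402). E2f3 was at 0.997-fold (adjusted p = 0.977). The mitotic list was read beside these to show another phase of the cycle. It had 6 of 20 genes (30%) called higher and 6 lower, with a median of 0.01. After correction for length the counts were 5 and 4, where 22.8% of all genes were called higher and 18% lower. Those counts include Cenpa, then called higher (0.25, adjusted p = 0.0061), and Ube2c, then called lower (-0.18, adjusted p = 0.0277). Neither was called as fitted. As fitted, the genes called higher were Ccnb1, Cdk1, Plk1, Aurka, Aurkb and Cdc20. Of these, Cdc20 and Aurka were not called after correction for length (adjusted p = 0.0579 and 0.147), Cdc20, Aurka and Plk1 were not called after correction for length and GC content (0.123, 0.162 and 0.073), and Aurka was not called without WT replicate 2 (0.0868). The Ccnb1 call held in 10 of 19 alternative fits and ended when any 1 library other than GOT1-/- replicate 1 was left out (adjusted p = 0.0633 to 0.184). Plk1, the mitotic kinase, had a log2 fold change of 0.37 (adjusted p = 0.000756), and the kinetochore motor gene Cenpe had one of -0.60 (adjusted p = 9.78e-05). Mki67, which encodes the proliferation marker Ki-67, had 181.2, 150.7 and 113.6 CPM in GOT1-/- libraries, against 197.5, 185.4 and 200.1 CPM in WT libraries. It was called lower at a log2 fold change of -0.39 (adjusted p = 0.0108, and 0.231 after correction for length), with GOT1-/- replicate 3 far below the rest. Cenpf, Kif11, Nusap1 and Top2a were also called lower, at -0.52, -0.28, -0.30 and -0.24, and Cenpf and Top2a were not called after correction for length (adjusted p = 0.17 and 0.909). With GC content added, Kif11 was not called either (adjusted p = 0.148).

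**Figure D4:**
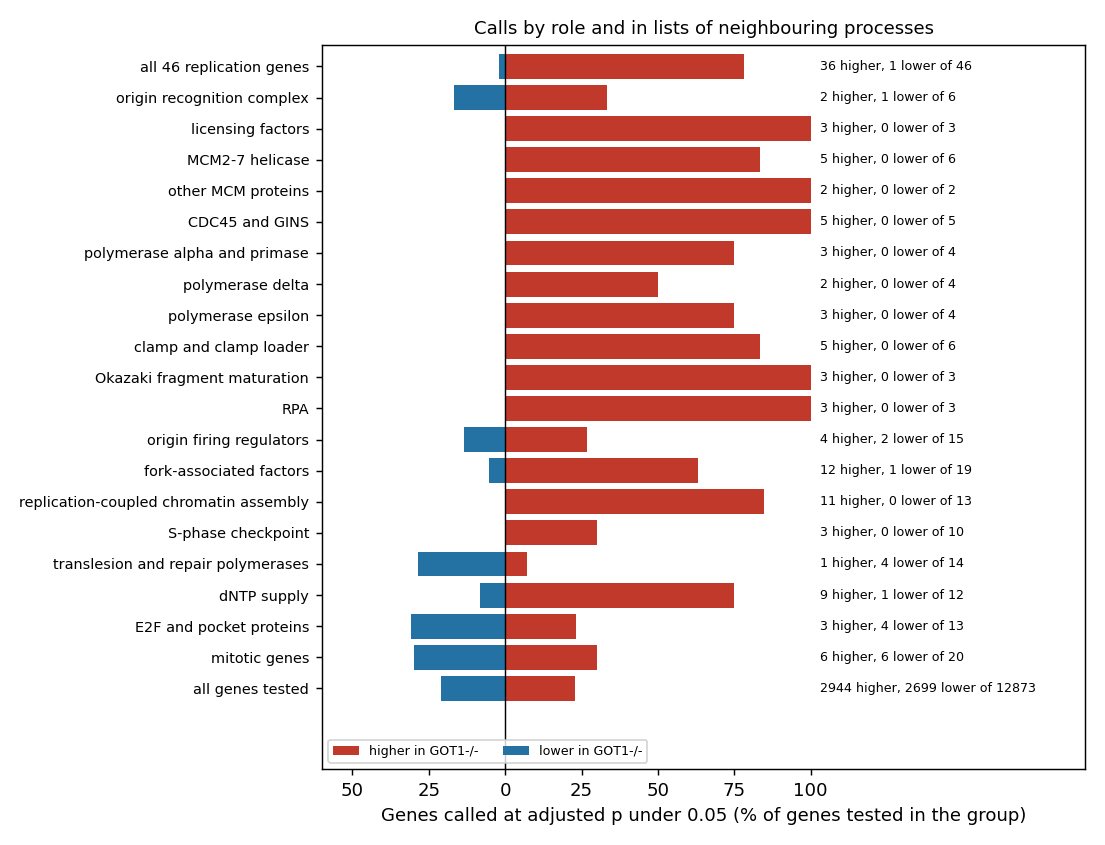
Share of genes called higher and lower in GOT1-/- cells in each replication role and each neighbouring list, with the number of genes in each and the share over all 12873 genes tested for reference. The licensing, CDC45 and GINS, Okazaki and RPA genes were all called higher, whereas the mitotic genes were divided between 6 higher and 6 lower.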

How the data were processed

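The authors deposited raw read counts (whole numbers) for 54532 genes, together with gene coordinates and lengths. STAR and the mouse build GRCm38 are named in the submitters' processing notes. How reads were counted (tool, strand, annotation) was not given in the sources used here, so reads of overlapping genes, antisense partners or near-identical copies may be divided in ways that cannot be checked. Per the labels' protocols, libraries were made from 1 µg of RNA with a NEBNext Ultra kit.

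All 6 libraries were fitted with edgeR 4.0.16 in R 4.3.3: TMM scaling (factors 0.976 to 1.01), filterByExpr (minimum count 10, minimum total 15), a two-sided quasi-likelihood F-test with genotype as its only term, and Benjamini-Hochberg adjustment over 12873 genes. Calls were made at an adjusted p under 0.05. CPM per kb divides CPM by the deposited gene length. That length can exceed the longest transcript of a gene, so ranks and proportions between genes per kb are approximate. Length, or length and GC content (GENCODE M21), was corrected by removing each library's trend on natural splines with 5 degrees of freedom. Exon overlaps and copies (at least 90% identity over 100 bases and 10% of the transcript) also come from GENCODE M21. Libraries of a genotype differed beyond counting noise (chi-square over degrees of freedom, 3.76 to 13.7) and stayed separate samples. On simulated counts of this comparison (12613 genes), 56% of genes changed 1.3-fold and 88% of those changed 2-fold were recovered, and 12 unchanged genes were called. The simulation changed only a small share of genes, where 43.8% were called in the data, so recovery in the data may differ.

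Members and gene lists were chosen with earlier results of these data known. Values in every library are given, within each role, for up to 3 genes with the smallest adjusted p, for genes called lower and for the uncalled gene with the highest level per kb. From each list up to 3 called genes with the smallest adjusted p are named, and those called against the direction of most of the list. Rbl1, Rbl2, E2f2, E2f3, Cenpa, Ube2c and the mitotic genes called higher were named after their values were seen, as were some single values beside them. Alternatives were DESeq2 1.42.0, limma-voom (limma 3.58.1), other scalings, filters and thresholds, the replicate number as a block, and each library left out in turn.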

Additional observations from a re-analysis of the deposited data

How the results depend on the processing

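The count of 36 replication genes called higher was 29 to 37 with 1 library left out, 34 with DESeq2, 35 with no filter on low counts, 35 with a stricter filter that no longer tested Fen1, 32 with the length correction, 35 with length and GC content corrected, and 29 at an adjusted p under 0.01. Calls of 26 of the 36 held in every one of the 19 fits that tested them. The 1 lower call, Orc3, became 0 without WT replicate 2 (range 0 to 1 with a library left out) and 0 at an adjusted p under 0.01, and Pold4 took its place as the 1 lower call in the corrected fits. Calls over all genes, 5643, ran between 4426 and 5718 with a library left out.

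The replicate numbers showed no sign of pairing the libraries. The correlation of deviations of same-numbered libraries was 0.059, -0.0258 and 0.0332, and that of differently numbered ones ran from -0.103 to 0.0672. With 3 libraries per genotype these values cannot exclude a pairing. With the replicate number as a block, 36 replication genes were called higher and 1 lower, and 5792 of all genes were called.

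Some log2 fold changes changed sign, all but 3 of them of genes that were not called. Orc4 (-0.03) was 0.01 with upper-quartile scaling, 0.14 with length correction, with or without the replicate block, 0.38 with length and GC content, 0.01 without GOT1-/- replicate 2 and 0.002 without WT replicate 3. Orc5 (-0.12) was 0.12 with length and GC content. Prim2 (-0.07) was 0.02 with length correction, with or without the block, and 0.08 with length and GC content. Pold4 (-0.01) was 0.02 with upper-quartile scaling, and 0.004 without GOT1-/- replicate 3, 0.03 without WT replicate 1 and 0.05 without WT replicate 2. Pole2 (0.05) was -0.03 with length correction, with or without the block, -0.004 without GOT1-/- replicate 2 and -0.03 without WT replicate 3, in a range of -0.03 to 0.11 with a library left out. The 3 called lower were Dbf4 (-0.22), Top2a (-0.24) and Top1 (-0.21), which were 0.08, 0.06 and 0.16 with length and GC content, and Top1 was 0.07 with length correction, with or without the block. The cause was not tested.

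Depth limits most the genes with few counts, such as Fen1, Orc1, Dna2, Mcm8 and Gins3.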
